A study of Mus musculus with 29 samples.

Results

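The genes described here encode the contractile and adhesive machinery of cultured cells, that is stress fibres and the focal adhesions at their ends. They were chosen by symbol from a list of 35 actomyosin, calponin, LIM-domain and focal adhesion genes, and all 35 were found among the 25239 genes of the deposited expression table. The table holds bulk RNA-seq of 29 libraries from primary astrocyte cultures of wildtype C57BL/6J mice, taken from the cortex at postnatal day 5 to 6 per the protocol (6 to 8 in the series text). The cells were grown for 10 days with EGF and bFGF at 10 ng/ml each, or with bFGF alone at 10 ng/ml, transduced with retroviruses and sorted by reporter fluorescence 48 h later. The control virus carried a fluorescent reporter only. The other viruses carried Neurog2, a proneural transcription factor, or Hmgb2, a DNA-bending chromatin protein, or the factors were given together. All used the ubiquitous CAG promoter and a reporter. Per the paper, the reporter was dsRED for Neurog2 and GFP for Hmgb2, and the control of the RNA-seq was GFP. Neurog2 and dsRED therefore cannot be told apart in comparisons with the controls. With EGF+bFGF there were 5 libraries of Control, 3 of Neurog2, 4 of Hmgb2 and 3 of Neurog2+Hmgb2, and with bFGF alone 3 of Control, 4 of Neurog2, 4 of Hmgb2 and 3 of Neurog2+Hmgb2. The source is labelled grey matter, whereas the methods name white matter. The cells of every group were detached with trypsin before sorting, and retroviruses of this type enter the genome of dividing cells only.

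Stress fibres are bundles of actin filaments held together by crosslinkers such as α-actinin, wrapped by tropomyosin and caldesmon, and pulled by non-muscle myosin II. They end in focal adhesions, where talin, vinculin, zyxin and paxillin couple actin to integrins. Cultured astrocytes on a rigid surface form both structures. Many of the genes are targets of serum response factor (SRF), which binds the CArG box and is switched on when its cofactors of the MRTF family are released from monomeric actin. Myosin II is active when its light chain is phosphorylated. Myosin light chain kinase (Mylk) adds the phosphate, myosin phosphatase removes it, and Ppp1r14a, also known as CPI-17, inhibits that phosphatase.

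A motif known from promoters of SRF targets is shown first. Promoter sequences of RefSeq (build GRCm38.p6) were matched by symbol for 30 of the 35 genes, and the 250 bases before the start were searched for the CArG box, written as CC, 6 bases that are each A or T, and GG. This pattern reads the same on both strands. It was found in 5 of the 30 genes (16.7%) and in 439 of all 27025 genes with a promoter entry (1.62%). The windows below show each box in capitals with up to 25 bases on each side, so that its exact letters can be compared between a focal adhesion gene (Vcl), a calponin (Cnn2), a myosin light chain (Myl9), an actin-binding protein (Filip1l, its second promoter entry) and Srf itself, whose boxes lie close together.
Vcl: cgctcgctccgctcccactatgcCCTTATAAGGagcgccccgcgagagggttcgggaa
Cnn2: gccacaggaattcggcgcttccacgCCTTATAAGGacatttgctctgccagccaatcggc
Filip1l: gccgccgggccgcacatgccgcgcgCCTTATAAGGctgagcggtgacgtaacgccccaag
Myl9: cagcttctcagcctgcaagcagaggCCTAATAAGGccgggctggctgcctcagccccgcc
Srf: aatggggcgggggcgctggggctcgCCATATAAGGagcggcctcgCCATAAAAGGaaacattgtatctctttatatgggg

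The box of Vcl, Cnn2 and Filip1l had the same letters. The Vcl window is chr14:20929148-20929205 on the plus strand and its box ends 217 bases before the start. The Cnn2 window is chr10:79988519-79988578 on the plus strand, 46 bases before the start. The Filip1l window is chr16:57549155-57549214 on the plus strand, 52 bases before the start. The Myl9 window is chr2:156775278-156775337 on the plus strand, 151 bases before the start, and the Srf window is chr17:46556190-46556269 on the minus strand, with its nearer box 52 bases before the start. Vcl and Cnn2 were among the genes lower with Neurog2 virus, while Myl9, Filip1l and Srf did not pass that test. Another motif searched was the CAGATG form of the E-box on either strand, a sequence bound by proneural factors. It was present in 5 of the 30 promoters (16.7%), against 16.3% of all promoters. The 5 genes were Cald1, Lims1, Myh9, Palld and Ppp1r14a. With Neurog2 virus Ppp1r14a rose most (2.68) and Palld was lower (-0.77). Cald1, Lims1 and Myh9 did not pass, with differences of -0.29, -0.20 and -0.50. The copy of Ppp1r14a, read as the reverse complement CATCTG, lies 179 bases before the start in the window chr7:29289110-29289165 on the plus strand.
Ppp1r14a: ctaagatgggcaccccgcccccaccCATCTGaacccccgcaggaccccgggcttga

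The CATTCC motif bound by TEAD factors, searched on either strand, was present in 12 of the 30 promoters (40%) and in 14.4% of all promoters. Each match is a description of letters, and binding was not measured here.

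The levels of the transduced genes were checked against the labels before the results. Neurog2 stood at 7.74 to 8.22 in the 8 control libraries, on the regularised log2 (rlog) scale used for every level below. It stood at 12.36 to 14.29 in the 13 libraries labelled Neurog2 or Neurog2+Hmgb2, and at 9.35 to 11.47 in the 8 libraries labelled Hmgb2. The last range lies above every control and below every Neurog2 library, so those 8 are called the libraries labelled Hmgb2, and the Neurog2 virus, Hmgb2 virus and culture means, which rest on them, are also given without them. Ranges and medians for libraries without Neurog2 virus, and the counts of the marker and other gene lists, include those 8 libraries. Hmgb2 itself was at 11.48 to 13.32 in the libraries with Hmgb2 virus and at 9.34 to 10.89 in the others.

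**Figure D1:**
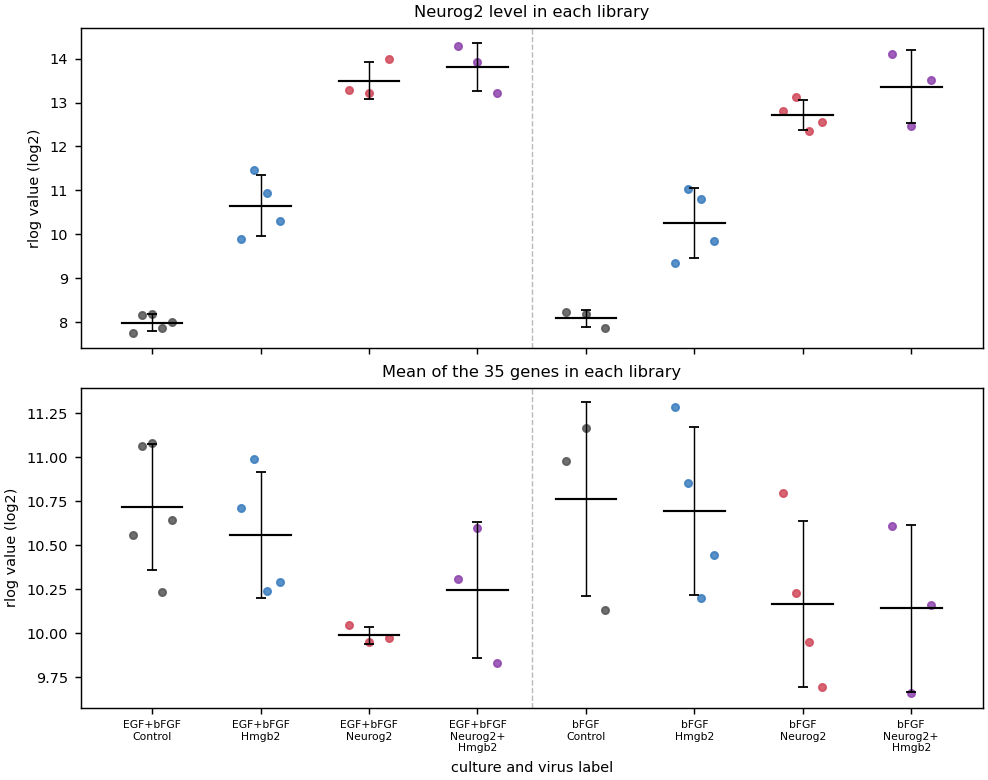
Neurog2 level (top) and mean of the 35 genes (bottom) in each library, both as rlog values, by culture and virus label. Points are libraries, lines are group means and bars are standard deviations. Neurog2 in the libraries labelled Hmgb2 lies between controls and Neurog2 libraries, and the mean of the 35 genes varies within groups, from 10.23 to 11.08 among EGF+bFGF controls.

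Most of the genes were lower in astrocytes that had received Neurog2 virus. With the mean taken over cultures and Hmgb2 virus, 19 of the 35 genes were lower and 1 was higher at an adjusted p under 0.05 (limma, Benjamini-Hochberg over 15719 genes), where 6.74% of all tested genes were lower and 8.54% were higher. The median difference over the 35 genes was -0.62 on the log2 scale, and 33 of them had a difference below 0. Over all tested genes the median was 0.01 and 48.8% were below 0. More than 2-fold lower were 5 genes, namely Cnn1, Lmod1, Acta2, Tagln and Vcl, against 0.464% of all genes. Without the 8 libraries labelled Hmgb2, 15 genes were lower and 1 was higher, where 3.61% and 4.61% of all genes were, and the calls of Tagln, Cnn2, Tpm2 and Pdlim7 were lost, with adjusted p-values of 0.0831, 0.0567, 0.134 and 0.0676. The labels do not say whether libraries of a group came from separate cultures or animals, so the p-values measure the spread between these libraries, which may be technical.

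**Figure D2:**
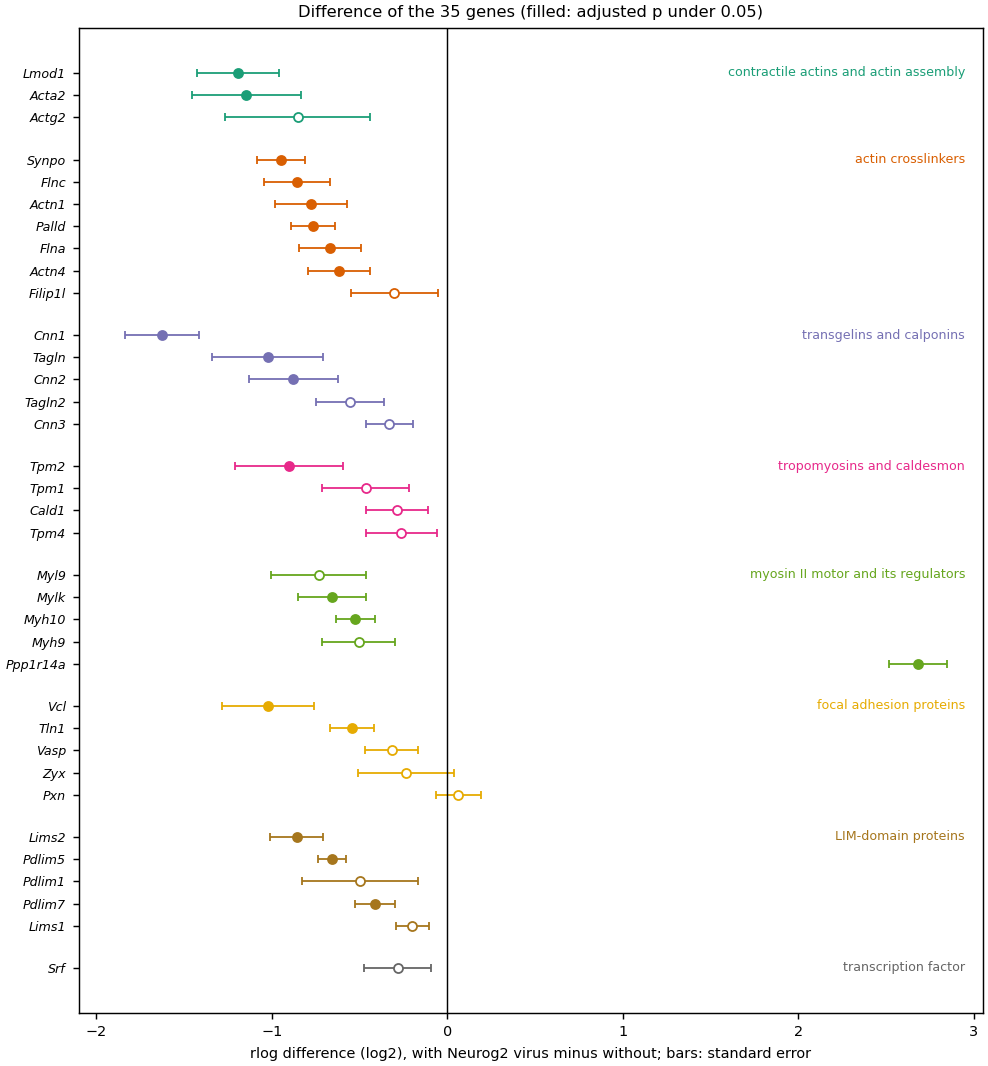
Difference in rlog value (log2) between libraries with and without Neurog2 virus for the 35 genes, grouped by role. Bars are standard errors and filled points have an adjusted p under 0.05. All genes lie below 0 except Ppp1r14a at 2.68 and Pxn at 0.06.

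Other cell types were looked for beside this result. In the same comparison 6.74% of all tested genes were called lower and 8.54% higher. An unadjusted p under 0.05 in limma was held by 29.1% of all tested genes, and 48.8% had a difference below 0. The mean of 8 neuronal markers was 6.47 to 8.76 in the 13 libraries with Neurog2 virus and 5.96 to 6.70 in the 16 without. Of these markers 6 were higher and 1, Stmn2, was lower. Of 9 tested pericyte and smooth muscle markers, cells that also use Acta2, Tagln and Cnn1, 2 were lower, Mcam by -0.91 ± 0.18 and Myh11 by -0.60 ± 0.16. Myh11 was low in all 29 libraries, at 2.08 to 3.94, whereas Mcam was at 6.85 to 9.38. The mean of the pericyte and smooth muscle list overlapped between the libraries with virus (5.51 to 6.47) and without (5.62 to 6.57). In all, 4 of the 9 had an unadjusted p under 0.05 and 7 had a difference below 0. Of the pericyte genes on the list, Pdgfrb (7.77 to 10.16), Cspg4 (8.22 to 10.68) and Notch3 (7.16 to 10.02) were well above 0 in all 29 libraries, whereas Kcnj8, Abcc9 and Higd1b were below 0 in all of them. Of 8 tested fibroblast and meningeal markers 0 were called by limma and 1 had an unadjusted p under 0.05, while Col1a1 was at 11.79 to 15.96. Of 8 tested endothelial markers 2 were lower, Tek, which was low in all libraries (1.68 to 3.03), and Esam (4.70 to 9.80). Of 13 microglial markers 3 were higher and 12 had an unadjusted p under 0.05 in limma. The microglial list means were 4.80 to 8.85 with virus and 4.59 to 8.62 without. Of 10 astrocyte markers 0 were called and 2 had an unadjusted p under 0.05, and Gfap was at 13.04 to 16.24 in all libraries. Of 7 oligodendrocyte lineage markers and 8 cell cycle genes 0 were called by limma, and 0 had an unadjusted p under 0.05. The part of other cell types in the changes of the 35 genes was not tested, and in bulk samples fewer cells of a type and less RNA per cell cannot be told apart.

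The gene that moved against the rest belongs to the regulators of myosin. Ppp1r14a, the inhibitor of myosin phosphatase (chromosome 7, 29289308 to 29293801, plus strand), was at 3.71, 3.70, 4.17, 3.58 and 3.38 in the EGF+bFGF controls and at 3.65, 3.89 and 3.58 in the bFGF controls. It was at 5.45, 5.97 and 6.36 in the EGF+bFGF Neurog2 libraries and at 7.04, 6.14, 6.14 and 6.11 in the bFGF Neurog2 libraries. With Neurog2+Hmgb2 it was at 6.53, 7.49 and 7.50 in the EGF+bFGF culture and at 7.66, 6.08 and 7.36 in the bFGF culture. Every library with Neurog2 virus was above every library without it. The libraries labelled Hmgb2 were at 3.84, 4.49, 4.18 and 4.50 with EGF+bFGF and at 3.83, 4.35, 4.56 and 3.69 with bFGF, a range that overlaps the top of the controls and ends below all Neurog2 libraries. The rise with Neurog2 virus was 2.68 ± 0.17 (standard error), 6.41-fold on the rlog scale, with an adjusted p of 6.98e-11 in limma, and 2.92 ± 0.21 without the libraries labelled Hmgb2. The libraries of the groups with and without Neurog2 virus failed to overlap in that direction for 0.286% of all genes. Since the rlog transformation shrinks genes with few reads, and Ppp1r14a was low in controls, the ratio of reads may be larger.

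Ppp1r14a was called in each comparison of a Neurog2 group with its control. With EGF+bFGF the difference was 2.22 ± 0.32 for Neurog2 and 3.47 ± 0.32 for Neurog2+Hmgb2. With bFGF alone it was 2.65 ± 0.34 for Neurog2 and 3.33 ± 0.36 for Neurog2+Hmgb2. Leaving out each library in turn kept all 4 calls, but the last was lost when only its own groups were fitted (adjusted p 0.0590).

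The other myosin genes were lower or did not pass. Myh10, the heavy chain of non-muscle myosin IIB, ranged from 10.27 to 11.02 with a median of 10.61 in the 13 libraries with Neurog2 virus and from 10.57 to 11.93 with a median of 11.18 in the 16 without. The ranges overlapped, and the difference was -0.52 ± 0.11 (adjusted p 0.00263). Mylk, the kinase that activates myosin II, ranged from 3.79 to 5.50 (median 4.46) with the virus and from 4.30 to 6.49 (median 4.92) without. Its difference was -0.66 ± 0.19 (adjusted p 0.0232), a call that was lost without bFGF Control replicate 2 (adjusted p 0.0534). The light chain gene Myl9 had a difference of -0.73 ± 0.27 and Myh9, the heavy chain of myosin IIA, of -0.50 ± 0.21. Neither passed, with adjusted p-values of 0.0694 and 0.107 in limma.

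Among the contractile actins, Acta2, smooth muscle α-actin, was lower by -1.14 ± 0.31 (adjusted p 0.0134). It ranged from 11.98 to 14.62 (median 13.26) with Neurog2 virus and from 12.85 to 15.24 (median 14.27) without. These ranges overlapped widely, since bFGF Neurog2 replicate 1 was at 14.62 whereas bFGF Control replicate 3 was at 12.94. Lmod1, a leiomodin that starts actin filaments in smooth muscle, was at 4.87 to 6.43 (median 5.51) with the virus and at 5.50 to 7.87 (median 6.68) without, a difference of -1.19 ± 0.23 (adjusted p 0.00103). Actg2, smooth muscle γ-actin, had a difference of -0.85 ± 0.41 that did not pass (adjusted p 0.173). The coding sequences of actin genes are much alike, and how reads that fit several of them were counted is not given in the sources used here.

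Of the 7 crosslinkers 6 were called lower, against 6.74% of all genes. Synpo, synaptopodin, an actin-bundling protein that binds α-actinin (chromosome 18, 60593973 to 60660142, minus strand), ranged from 8.04 to 9.82 (median 8.80) with Neurog2 virus and from 9.17 to 10.36 (median 9.75) without, and fell by 0.95 ± 0.14 (adjusted p 3.82e-05). Palld, palladin, a scaffold at dense regions of stress fibres (chromosome 8, 61511433 to 61902690, minus strand), ranged from 10.31 to 11.37 (median 10.88) and from 11.08 to 12.17 (median 11.63), and fell by 0.77 ± 0.12 (adjusted p 1.32e-04). The ranges of both genes overlapped. For Synpo the highest library with the virus (9.82) was above the median of those without it (9.75). For Palld it (11.37) was below that median (11.63). The α-actinins Actn1 and Actn4 had differences of -0.78 ± 0.20 and -0.62 ± 0.18, and the filamins Flna and Flnc of -0.67 ± 0.18 and -0.85 ± 0.19. Filip1l, which resembles a filamin-interacting protein, had a difference of -0.30 ± 0.25 that did not pass.

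The calponins, actin-binding proteins that restrain myosin in smooth muscle, differed in the size of their change. Cnn1, the smooth muscle form (chromosome 9, 22099216 to 22109630, plus strand), ranged from 8.09 to 10.10 (median 9.02) with Neurog2 virus and from 9.56 to 11.65 (median 10.49) without. It fell by 1.63 ± 0.21, the largest decrease among the 35 genes, with an adjusted p of 8.94e-06. Cnn2 had a difference of -0.88 ± 0.25 (adjusted p 0.0199), and Cnn3 of -0.33 ± 0.13 (adjusted p 0.0989). The differences between these paralogs were not tested. Tagln, transgelin or SM22α, a calponin relative, was lower by -1.02 ± 0.32 (adjusted p 0.0291), a call lost in 4 of the 29 fits without a single library, namely without EGF+bFGF Neurog2+Hmgb2 replicate 3, bFGF Control replicate 1 or 2, or bFGF Neurog2+Hmgb2 replicate 2, with adjusted p-values up to 0.0713. In the GENCODE annotation 67.9% of the exonic bases of Tagln also belong to Pcsk7 or Gm48529, and the kit keeps no strand, so its level is uncertain. Tagln2 had a difference of -0.55 ± 0.19 with an adjusted p of 0.0560.

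Tropomyosins and caldesmon, which wrap the filament, moved little against their spread, with 1 of 4 called lower, against 6.74% of all genes. Tpm2 ranged from 9.12 to 11.79 (median 9.80) with Neurog2 virus and from 10.18 to 12.10 (median 10.73) without, and its difference of -0.90 ± 0.31 had an adjusted p of 0.0492. That call was lost in 20 of the 29 fits without a single library, with adjusted p-values up to 0.107. Tpm1, Tpm4 and Cald1 had differences of -0.46 ± 0.25, -0.26 ± 0.20 and -0.29 ± 0.18 and did not pass.

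Of the 5 focal adhesion proteins, 2 were lower, against 6.74% of all genes. Vcl, vinculin, which strengthens the link between talin and actin, ranged from 9.96 to 11.88 (median 10.66) with Neurog2 virus and from 10.78 to 12.79 (median 11.68) without, a difference of -1.02 ± 0.26 (adjusted p 0.00988). Of its exonic bases 25.5% are shared with Ap3m1. Tln1, talin 1, which activates integrins, ranged from 10.46 to 11.45 (median 11.08) and from 10.88 to 12.07 (median 11.61), a difference of -0.54 ± 0.13 (adjusted p 0.00506). The ranges of both genes overlapped. Zyx, zyxin, had a difference of -0.24 ± 0.28, Vasp, which elongates actin filaments, of -0.32 ± 0.15, and Pxn, the scaffold paxillin, of 0.06 ± 0.13. None of these passed.

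The LIM-domain genes held the change that stood out most from its spread among the decreases. Pdlim5, a PDZ and LIM scaffold that binds α-actinin (chromosome 3, 142239590 to 142395696, minus strand), ranged from 10.76 to 11.20 (median 11.03) in the libraries with Neurog2 virus and from 11.24 to 12.07 (median 11.70) in those without. Every library with the virus was below every library without it, which held for 0.0127% of all genes. The difference was -0.66 ± 0.08 (adjusted p 2.55e-06). Lims2, a PINCH adaptor of integrin-linked kinase (chromosome 18, 31922290 to 31958619, plus strand), ranged from 4.42 to 6.17 (median 5.06) with virus and from 5.27 to 7.06 (median 5.89) without, and fell by 0.86 ± 0.15 (adjusted p 3.52e-04). Its paralog Lims1 had a difference of -0.20 ± 0.09 with an adjusted p of 0.160. Pdlim7 was lower by -0.41 ± 0.11 (adjusted p 0.0162), and Pdlim1 had a difference of -0.50 ± 0.33 that did not pass. Srf, the transcription factor, ranged from 7.86 to 9.22 (median 8.22) with the virus and from 8.06 to 9.69 (median 8.64) without, and its difference of -0.28 ± 0.19 did not pass (adjusted p 0.353).

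**Figure D3:**
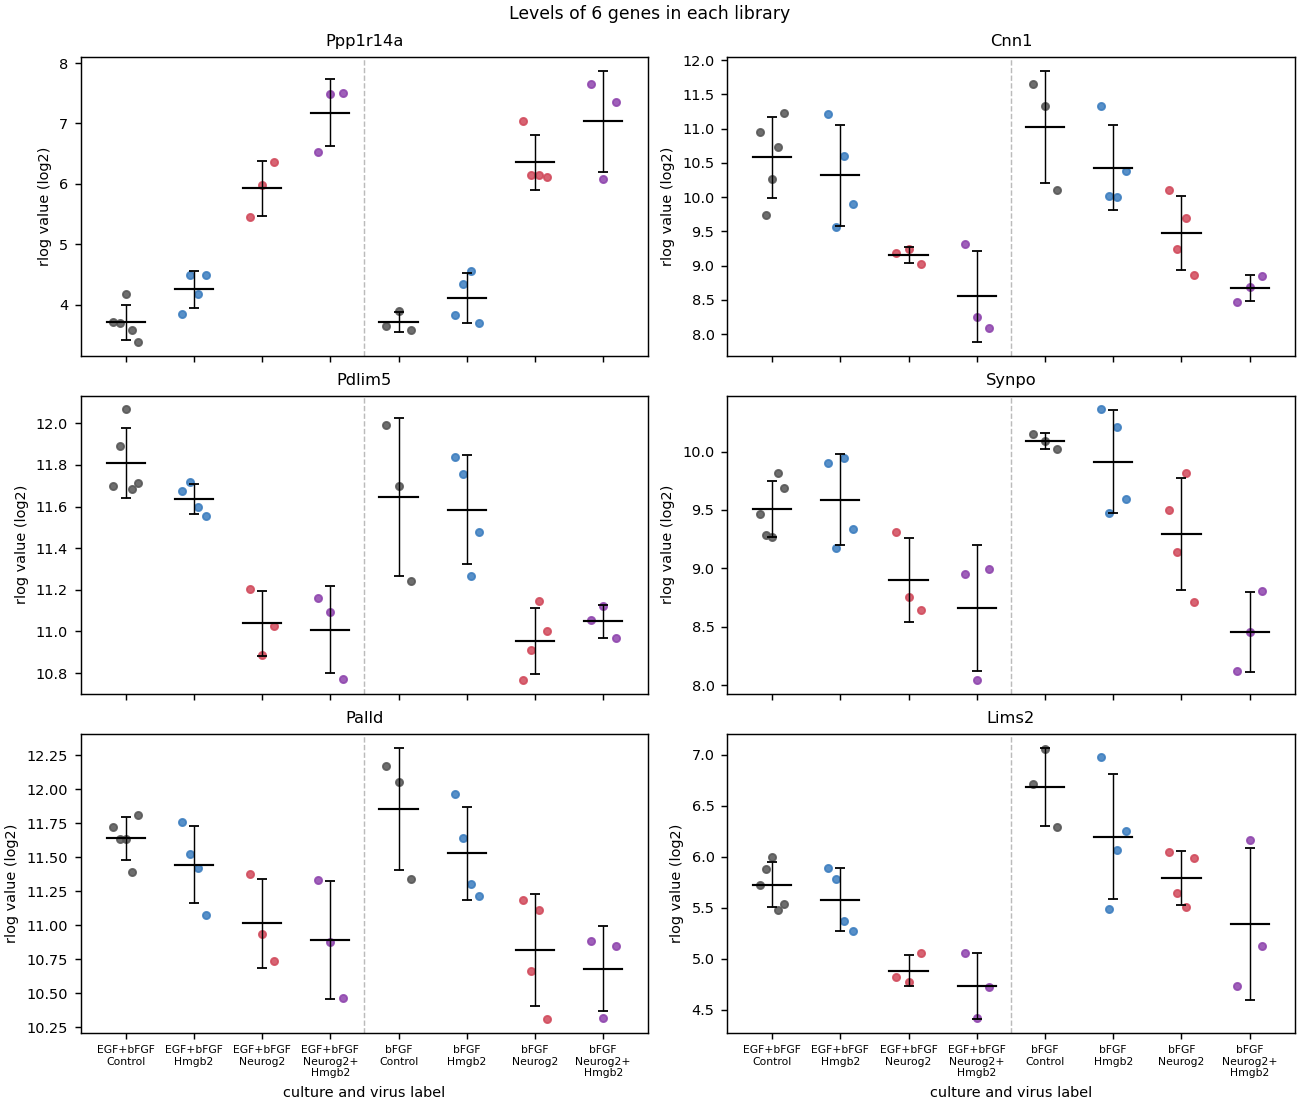
rlog values (log2) of Ppp1r14a, Cnn1, Pdlim5, Synpo, Palld and Lims2 in each library, by culture and virus label. Points are libraries, lines are group means and bars are standard deviations. Ppp1r14a with Neurog2 virus starts at 5.45, above the highest value without it of 4.56, and Pdlim5 with Neurog2 virus ends at 11.20, below the lowest value without it of 11.24.

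Single comparisons of 3 to 5 libraries per group called fewer of the genes. In the EGF+bFGF culture, Neurog2 against Control had 1 gene higher (1.35% of all genes) and 1 lower (0.229%), although 33 of 35 differences were below 0 (51.8% of all genes) with a median of -0.81. With array weights, whose estimation stopped before its tolerance, 19 were lower, but the share of all genes was not counted in that fit. Without array weights the gene that was lower was Pdlim5. It was at 11.20, 10.89 and 11.03 with Neurog2, below its values of 11.70, 11.89, 12.07, 11.68 and 11.71 in the controls, a difference of -0.77 ± 0.15 (adjusted p 0.00541). Without EGF+bFGF Neurog2 replicate 2 this call was lost (adjusted p 0.0626), and without EGF+bFGF Control replicate 2 or 4 there were 2 genes lower. In those fits too the share of all genes was not counted. The libraries did not overlap for 15 of the 35 genes in the lower direction, against 5.17% of all genes.

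Neurog2+Hmgb2 against Control in that culture had 1 gene higher (1.46% of all genes) and 2 lower (0.522%), with a median of -0.59 and 31 differences below 0 (48.4% of all genes). Pdlim5 was at 11.16, 11.09 and 10.77 in the Neurog2+Hmgb2 libraries, again below all controls, and fell by 0.80 ± 0.15 (adjusted p 0.00346). Cnn1 was at 9.31, 8.24 and 8.09 with Neurog2+Hmgb2 and at 10.96, 9.73, 10.26, 10.72 and 11.23 in the controls. These values did not overlap, and Cnn1 fell by 2.03 ± 0.41, which is 4.08-fold (adjusted p 0.00709). With array weights 10 genes were lower. Without EGF+bFGF Neurog2+Hmgb2 replicate 3, 0 were, with adjusted p-values of 0.0690 for Pdlim5 and 0.0978 for Cnn1. The share of all genes was not counted in either fit. The libraries did not overlap for 7 of the 35 genes in the lower direction, against 3.12% of all genes.

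In the bFGF culture, Neurog2 against Control had 1 gene higher (0.337% of all genes) and 0 lower (0.0127%), while 13 genes (8.26% of all genes) had an unadjusted p under 0.05 in limma and 34 differences were below 0 (48.6% of all genes), with a median of -0.70. The libraries did not overlap for 5 genes in the lower direction, against 3.28% of all genes. Pdlim5 came closest to a call among the decreases. It was at 10.76, 10.91, 11.15 and 11.00 with Neurog2 and at 11.99, 11.70 and 11.24 in the controls, a difference of -0.69 ± 0.16 with an adjusted p of 0.0509. Palld had a difference of -1.04 ± 0.25 with an adjusted p of 0.0743. With array weights 9 genes were lower, without bFGF Control replicate 3, 4 were, and without bFGF Neurog2 replicate 3, 2 were. The share of all genes was not counted in these fits.

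Neurog2+Hmgb2 against Control in the bFGF culture had 1 gene higher (1.03% of all genes) and 4 lower (0.452%), with 32 differences below 0 (48.8% of all genes) and a median of -0.68. Synpo was at 8.12, 8.46 and 8.80 against 10.15, 10.09 and 10.02 in the controls. Its controls lay close together and apart from the transduced libraries, and it fell by 1.63 ± 0.30 (adjusted p 0.00451). Cnn1 was at 8.47, 8.69 and 8.85 against 11.65, 11.32 and 10.10, and fell by 2.35 ± 0.46 or 5.11-fold (adjusted p 0.00821). Palld was at 10.88, 10.32 and 10.84 against 12.17, 12.06 and 11.34 and fell by 1.18 ± 0.27 (adjusted p 0.0233). Lims2 was at 4.73, 6.17 and 5.13 against 6.71, 7.06 and 6.29, a decrease by -1.35 ± 0.33 (adjusted p 0.0360). The groups did not overlap in any of these 4 genes. In all, 9 of the 35 genes had no overlap in the lower direction, against 10.8% of all genes. The number of genes called lower was 1 without bFGF Control replicate 1 or 2, 2 without bFGF Neurog2+Hmgb2 replicate 3, 7 without bFGF Control replicate 3, and 13 with array weights. The share of all genes was not counted in these fits, so a shift over the whole table is not known.

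Adding Hmgb2 to Neurog2 called none of the genes. In the EGF+bFGF culture 0 were higher and 0 lower (0.00636% and 0% of all genes), with 2 (3.72% of all genes) at an unadjusted p under 0.05 in limma and a median of 0.26. Ppp1r14a had the smallest p there, with a difference of 1.25 ± 0.36 and an adjusted p of 0.802, and its Neurog2+Hmgb2 libraries were all above its Neurog2 libraries, as held for 5 of the 35 genes and 5.87% of all genes. Cnn3 and Filip1l followed with differences of -0.60 ± 0.29 and 1.05 ± 0.54. In the bFGF culture 0 were higher and 0 lower (again 0.00636% and 0% of all genes), with 1 (2.2% of all genes) at an unadjusted p under 0.05 and a median of -0.01. Synpo, Ppp1r14a and Cnn1 had the smallest p-values, with differences of -0.83 ± 0.28, 0.68 ± 0.34 and -0.80 ± 0.43.

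Hmgb2 virus alone called none either. In the libraries labelled Hmgb2, 0 genes were higher and 0 lower than controls in limma in the EGF+bFGF culture (0.0127% and 0% of all genes) and in the bFGF culture (0.00636% and 0%), with 0 at an unadjusted p under 0.05 in each (0.782% and 0.414% of all genes). The largest differences by p were 0.54 ± 0.30 for Ppp1r14a, -0.17 ± 0.14 for Pdlim5 and -0.28 ± 0.23 for Tln1 with EGF+bFGF, and -0.40 ± 0.23 for Myh10, -0.49 ± 0.31 for Lims2 and -0.60 ± 0.43 for Cnn1 with bFGF. The raised Neurog2 of these libraries stands beside these values, and its part in them was not tested. With the mean over cultures and Neurog2 virus, 0 genes were called for Hmgb2 virus (0.0127% of all genes higher and 0% lower), and 3 had an unadjusted p under 0.05 in limma, against 5.55% of all genes. They were Ppp1r14a at 0.72 ± 0.17, Cnn1 at -0.57 ± 0.21 and Synpo at -0.29 ± 0.14, with adjusted p-values of 0.320, 0.779 and 0.779. Without bFGF Neurog2+Hmgb2 replicate 2, 1 gene was higher, and the share of all genes was not counted. Without the libraries labelled Hmgb2, 0 were called in limma and the same 3 genes had an unadjusted p under 0.05, with differences of 0.96 ± 0.26, -0.70 ± 0.29 and -0.54 ± 0.19.

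The growth factors were compared next. With the mean over viruses, 1 gene was higher in the bFGF culture (0.757% of all genes) and 0 were lower (0.426%), and 3 had an unadjusted p under 0.05 in limma, against 14.9% of all genes. The gene was Lims2, which ranged from 4.73 to 7.06 (median 6.06) in the 14 bFGF libraries and from 4.42 to 6.00 (median 5.37) in the 15 EGF+bFGF libraries. These ranges overlapped, and the difference was 0.77 ± 0.15 (adjusted p 0.0188), a call that was lost without bFGF Control replicate 2 (adjusted p 0.0523). It was also lost without the libraries labelled Hmgb2, where the difference was 0.83 ± 0.16 (adjusted p 0.104) and 0% of all genes were called in either direction. Exons of Lims2 share 6.14% of their bases with Gpr17, a gene of the oligodendrocyte lineage. Mylk and Actg2 followed with 0.62 ± 0.19 (adjusted p 0.112) and 0.93 ± 0.41 (adjusted p 0.283). Of the fibroblast and meningeal markers Dcn and Pdgfra were higher in the bFGF culture by 1.84 ± 0.36 and 1.42 ± 0.34, and so was the endothelial marker Vwf by 0.54 ± 0.12, and 5 of 7 oligodendrocyte lineage markers had an unadjusted p under 0.05, with a median of 0.71 and none called. The part of these markers in the value of Lims2 was not tested.

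Within a virus, the cultures called 0 of the 35 genes in limma in each of the 4 comparisons, where 0% to 0.00636% of all genes were called in a direction. Unadjusted p-values under 0.05 were held by 2 genes for Control, 2 for Neurog2, 2 for Hmgb2 and 0 for Neurog2+Hmgb2, where 6.42%, 7.15%, 4.9% and 0.814% of all genes held one. Lims2 was the first by p in 3 of them. Its controls were at 6.71, 7.06 and 6.29 with bFGF and at 5.73, 5.88, 6.00, 5.47 and 5.54 with EGF+bFGF, without overlap (2 of the 35 genes and 2.81% of all genes in that direction), and differed by 0.96 ± 0.29 (adjusted p 0.728). The difference of the Neurog2 response between cultures, tested as an interaction, was called for 0 genes (0% of all genes), with 0 at an unadjusted p under 0.05 in limma (1.72% of all genes). The smallest p-values were those of Tagln2 (0.86 ± 0.54), Pdlim7 (0.49 ± 0.32) and Myh10 (-0.44 ± 0.32). For the Neurog2+Hmgb2 response 0 were called as well (0% of all genes), with 0 at an unadjusted p under 0.05 (1.55% of all genes), and Synpo (-0.79 ± 0.40), Pxn (-0.66 ± 0.37) and Palld (-0.43 ± 0.36) came first.

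The genes varied more between libraries of the same group than most genes did. The pooled standard deviation within groups had a median of 0.53 over the 35 genes, from 0.20 for Pdlim5 to 1.17 for Actg2, against 0.30 over all tested genes. In 33 of the 35 genes it was above that median. The size of the change and the spread together set the calls. Pdlim7 was called with a difference of -0.41 at a spread of 0.31, whereas Actg2 was not with -0.85 at a spread of 1.17, nor Myl9 with -0.73 at 0.76.

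**Figure D4:**
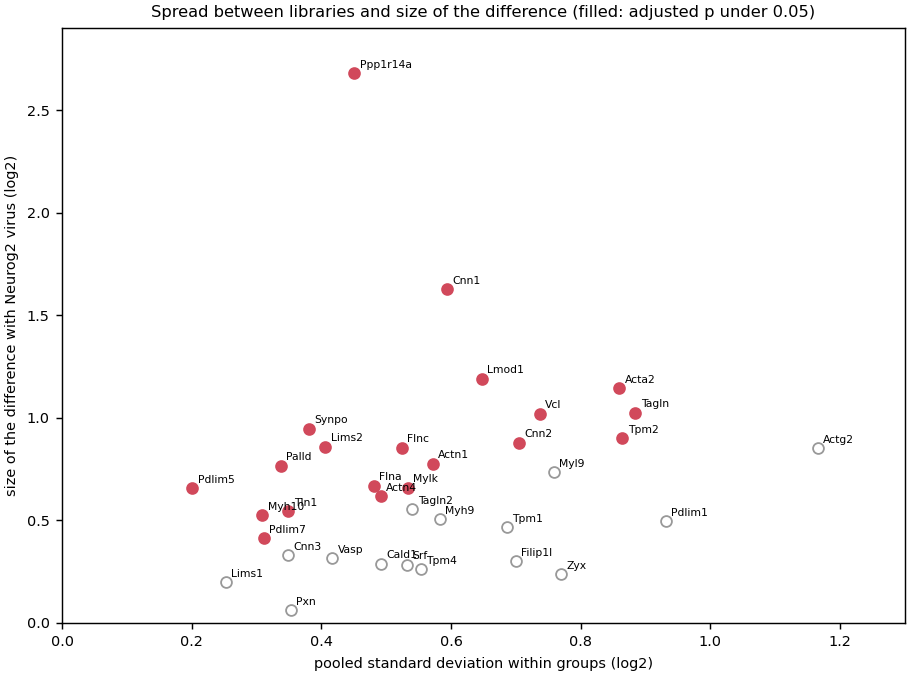
Size of the difference with Neurog2 virus (log2) against the pooled standard deviation within groups (log2) for each of the 35 genes. Filled points have an adjusted p under 0.05. Ppp1r14a, Cnn1 and Pdlim5 have differences of 5.95, 2.74 and 3.27 times their spread, and Actg2 and Pdlim1, with the widest spreads of 1.17 and 0.93, were not called.

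Parts of the spread were shared between genes. Among the EGF+bFGF controls, replicates 2 and 3 had Pdlim1 at 10.39 and 10.42, against 8.42, 7.86 and 8.80 in replicates 1, 4 and 5. Zyx was at 13.19 and 12.78 in those replicates, against 11.48, 11.02 and 11.52, and Tpm1 was at 14.22 and 14.35 against 13.24, 12.79 and 13.14. Cnn2 was higher there as well, at 12.84 and 12.84 against 12.28, 11.54 and 12.22. The other calponins went the opposite way, with Cnn3 at 13.20 and 13.34 against 14.03, 13.95 and 14.18, and Cnn1 at 9.73 and 10.26 against 10.96, 10.72 and 11.23. The same replicates had lower astrocyte marker means, 10.0 and 10.1 against 11.4, 11.3 and 11.3, higher endothelial means, 5.66 and 5.63 against 4.64, 4.42 and 4.61, and higher cell cycle means, 9.96 and 9.85 against 9.27, 9.03 and 9.48. Their microglial means were 8.62 and 6.42 against 5.75, 4.59 and 4.84, and their fibroblast and meningeal means 8.64 and 8.71 against 7.82, 7.21 and 7.87. The part of these in the values of the genes was not tested.

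In the bFGF controls, replicate 3 was the low one for the smooth muscle genes. Acta2 was at 12.94 there against 14.69 and 15.13, Tagln at 11.28 against 13.07 and 13.36, Myl9 at 9.95 against 12.12 and 12.28, and Lmod1 at 5.50 against 7.87 and 7.50. In the bFGF libraries labelled Hmgb2, replicate 3 was again the lowest for these 4 genes, with Acta2 at 12.85, Tagln at 11.17, Myl9 at 9.90 and Lmod1 at 5.67. Synpo did not share this, at 10.02 in that control against 10.15 and 10.09. The pericyte and smooth muscle marker mean was 5.90 in that control, against 6.23 and 6.28, and 5.84 in that library labelled Hmgb2, the lowest of its group. The fibroblast and meningeal mean was 10.1 in that control, against 8.14 and 9.64. The part of either list in these values was not tested.

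**Figure D5:**
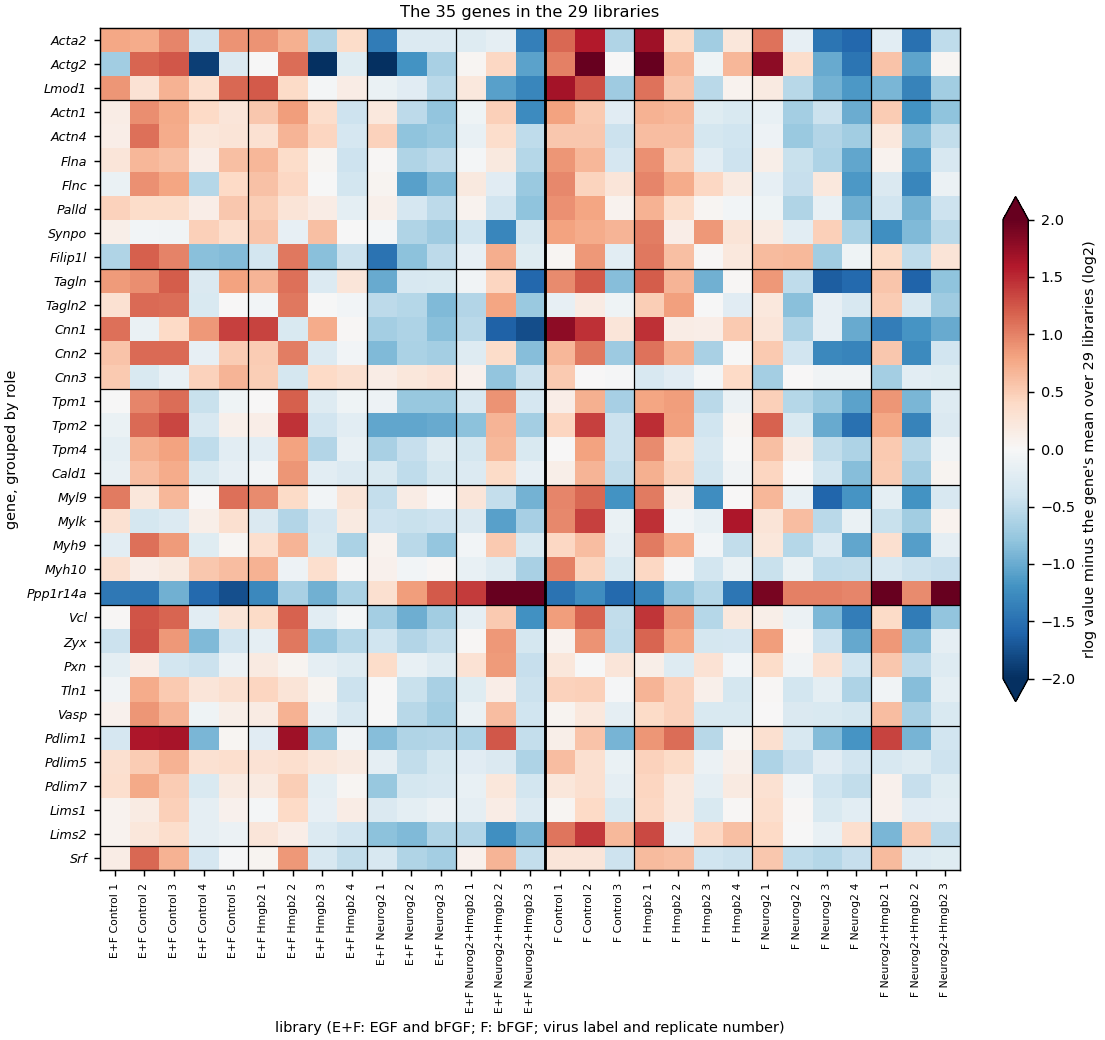
rlog value minus the mean of the gene over all 29 libraries (log2, colour) for each of the 35 genes, grouped by role, in each library, grouped by culture and virus label. Ppp1r14a is high in the libraries with Neurog2 virus where most other genes are low, and Pdlim1, Zyx and Tpm1 are high in EGF+bFGF Control replicates 2 and 3.

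Other genes of the same machinery, taken from lists, were tested in the same fit. With Neurog2 virus, 6.74% of all tested genes were lower and 8.54% were higher, which the counts of each list stand beside. Of 29 tested integrin adhesion components 13 were lower and 2 were higher, with a median of -0.38. They included Rsu1, a partner of the PINCH proteins, at -0.53 ± 0.08, Itga3, an integrin subunit, at -1.08 ± 0.19, Parva, α-parvin, at -0.55 ± 0.12, and Evl, a relative of Vasp, at 0.36 ± 0.08. In the list of ROCK kinase and myosin phosphatase regulation 7 of 22 were lower and 2 were higher. Ppp1r12a, the targeting subunit of the phosphatase that Ppp1r14a inhibits, fell by 0.40 ± 0.05 (adjusted p 1.92e-06), and Rock2, a kinase that acts on that subunit, by 0.44 ± 0.10. Limk2 and Rnd3 fell by 0.33 ± 0.08 and 0.49 ± 0.13. Of 16 tested paralogs of the 35 genes 4 were lower and 1 was higher, among them Csrp1 at -0.74 ± 0.14, Synpo2 at -0.82 ± 0.22 and Tagln3, a neuronal transgelin, at 1.31 ± 0.25. Of 20 actin and actin turnover genes 3 were lower, Dstn, Pfn2 and Cfl2, with differences of -0.44, -0.27 and -0.23, and of 10 other myosin genes 2 were, Myh11 and Myo1c. Of 9 SRF cofactors and regulators 1, Mrtfb, was lower by -0.44 ± 0.12, and of 8 immediate early targets of SRF 1, Ier2, was higher by 0.42 ± 0.14. In single comparisons with controls, Rsu1 and Ppp1r12a were lower with Neurog2+Hmgb2 in the EGF+bFGF culture, by -0.73 ± 0.16 and -0.47 ± 0.09.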

How the data were processed

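Per the labels and the methods, sorted cells were turned into cDNA by SMART-Seq v4, which keeps no strand. The authors aligned read pairs with STAR (mm10), counted genes of GENCODE with HTSeq 0.9.1 and transformed the counts with DESeq2 (1.36.0 in the submitters' notes, another version in the methods). The values deposited by the authors are regularised log2 (rlog) values. The transformation corrects for library size, pulls genes of few reads towards their mean and leaves gene length in, so levels were not compared between genes. Counts were not used here, and the depth of single libraries is unknown. Reads of viral cDNA can count towards Neurog2 and Hmgb2.

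Genes were tested where their rlog values averaged 1 or more, which kept 15719 and left out 9520. All 35 genes were kept. limma 3.58.1 in R 4.3.3 fitted 8 group means to 29 libraries (21 residual degrees of freedom, moderated variances with a trend), with 17 comparisons. Benjamini-Hochberg adjustment ran across the whole tested table, and a gene was called at an adjusted p under 0.05. The procedure was tested on simulated data with independent noise for each gene. Spread shared between genes, as described above, was not part of that simulation. Fold changes are on the rlog scale. Positions and shared exons came from GENCODE (GRCm38) and promoters from RefSeq. Figures were drawn in Python 3.11.15 using matplotlib 3.10.9.

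In each comparison the called genes were named, or those of the largest difference beside the others by role, and the 3 of smallest p where none was called. For the lists, up to 4 called genes by smallest p were named, apart from a gene that is not reported here. The 35 genes and all lists were chosen with earlier results of these data known, and the control replicates described for their spread were picked after their values were seen. The alternatives were no filter, a filter at 4, median centring of each library, quantile normalization, fits restricted to the groups of a comparison, array weights, a block for the replicate number over all libraries or within each culture, a fold threshold of 2, and leaving out each library. A fit without the libraries labelled Hmgb2 was added after the data were seen.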

Additional observations from a re-analysis of the deposited data

Results flagged for a closer look

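Values of 1 gene, or of the mean of the 35 genes, were taken in each group of 4 or 5 libraries. Of these 76 sets, 5 held a library far from the others, where chance gives about 1 in 20, or 3.8. Among the bFGF Neurog2 libraries, replicate 1 stood apart for 3 genes. Ppp1r14a was at 7.04 there and at 6.11 to 6.14 in the other 3, Srf at 9.08 against 7.97 to 8.07, and Cnn3 at 12.83 against 13.43 to 13.50. In the same group Myh10 was at 10.79 in replicate 2 and at 10.42 to 10.48 in the others. The level of Hmgb2 was 9.57 in EGF+bFGF Control replicate 4 and 10.10 to 10.30 in the other 4 controls. In 0 of the 35 genes did all libraries of a virus move one way in 1 culture and the opposite way in the other.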

How the results depend on the processing

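Median centring, quantile normalization, no filter and a mean of at least 4 left every count of called genes within 1.5 times its value. No called gene reversed its direction under any alternative that was run. Some small medians of the 35 genes did change sign when a single library was left out. That of Neurog2+Hmgb2 against Neurog2 with bFGF ran from -0.23 to 0.305, and that of Hmgb2 against Control with bFGF from -0.26 to 0.15. The differences of the 35 genes kept the signs counted above for Neurog2 virus under both rescalings (33 below 0). Without a filter the calls of Tagln and Tpm2 for Neurog2 virus and of Lims2 for Neurog2+Hmgb2 with bFGF were lost (adjusted p 0.0560, 0.0913 and 0.0605), since more genes were tested. Fits restricted to the groups of a comparison gave 0 genes lower for Neurog2+Hmgb2 with EGF+bFGF, and 1 lower and 0 higher with bFGF, where Ppp1r14a had an adjusted p of 0.0590. Without the libraries labelled Hmgb2, 0 were higher for the culture. Array weights, whose estimation stopped before its tolerance, gave 19 and 10 genes lower for Neurog2 and Neurog2+Hmgb2 with EGF+bFGF and 9 and 13 with bFGF, 1 higher for Neurog2+Hmgb2 against Neurog2 with bFGF, for the culture in Control and in Neurog2 and for Hmgb2 virus, and 4 higher for the culture overall. At more than 2-fold, 0 were lower for Neurog2 and 1 for Neurog2+Hmgb2 with EGF+bFGF, 5 for Neurog2 virus, and 0 higher for the culture. The cause of these shifts was not tested, apart from the fold threshold itself. The share of all genes called was counted in no refit other than that without the libraries labelled Hmgb2.

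With a replicate block, 6 and 4 genes were lower for Neurog2 and Neurog2+Hmgb2 with EGF+bFGF and 1 for Neurog2 with bFGF, and with the block within each culture 5 were for the first. The labels do not say what a number marks. The correlations of the deviations of same-numbered libraries ran from -0.61 to 0.81, 25 of 38 were over 0.1, and 9 of 29 libraries correlated best with their own number. How many would do so if the numbers were unrelated was not computed. Some numbers varied together, such as bFGF replicate 3 of Control, Hmgb2 and Neurog2 (0.51 to 0.81) and EGF+bFGF replicate 2 of Control, Hmgb2 and Neurog2+Hmgb2 (0.71 to 0.78). Among the comparisons of viruses, all pairs were over 0.1 only for Neurog2+Hmgb2 against Neurog2 with EGF+bFGF (0.17 to 0.35), where the block left 0 genes called.

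Leaving out 1 library gave 16 to 21 genes lower for Neurog2 virus, and 17 of its 20 calls were kept in every such fit. The lower counts ranged from 0 to 2 for Neurog2 and for Neurog2+Hmgb2 with EGF+bFGF, from 0 to 4 and from 1 to 7 with bFGF, and the higher counts from 0 to 1 for Hmgb2 virus and for the culture. Genes of wide spread, such as Actg2 and Pdlim1, limit what 3 to 5 libraries per group can show, and the rlog scale understates changes of genes with few reads.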
